A study of Mus musculus with 12 samples.

Results

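Pancreatic beta cells turn a rise in glucose into insulin release by a change in membrane voltage, and the 8 genes described here encode channels of that step. They are Abcc8, Kcnj11, Trpm5, Kcnma1, Cacna1a, Cacna1c, Cacna1d and Scn9a. They were taken as the rows of the deposited expression table whose platform annotation gives exactly 1 gene symbol equal to one of these names. All 8 genes were found, on 10 of the 35556 rows of the table, which name 19938 genes in all. A row is 1 probe set, a group of short probes read together. Kcnma1 and Scn9a have 2 rows each, and 2 further rows that name Scn9a together with its paralogues were not used.

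Glucose metabolism raises ATP, which closes the ATP-sensitive potassium (KATP) channel built from the Kcnj11 pore and the Abcc8 sulfonylurea receptor, and the membrane depolarises. Sodium and calcium channels then open, and calcium entry triggers the release of insulin granules. Voltage-gated and calcium-activated potassium channels bring the voltage back down, while calcium-activated cation channels such as Trpm5 add inward current.

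RNA came from Min6, a mouse insulinoma line used as a beta cell model, grown through 3 periods of 5 days each. In the return condition (RC) the first period was in medium with 15% serum at 20% oxygen. The second was serum-free at 5% oxygen, in a DMEM-F12 medium with apo-transferrin, progesterone, putrescine and selenite, and the last was back in serum at 20% oxygen. In the defined condition (DC) the last 10 days were spent in the serum-free medium at 5% oxygen. In the classic condition (CC) the cells stayed in serum at 20% oxygen throughout. All media held penicillin and streptomycin, and the serum-containing DMEM also held 2-mercaptoethanol. Each condition has 4 whole-transcript arrays from a single experiment in 1 cell line, so every p-value reflects only how these samples vary, which may be technical. Serum, oxygen, the basal medium, 2-mercaptoethanol and the supplements changed together and cannot be told apart. RC also had 5 serum-free days against 10 in DC.

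The array medians lay between 7.92 and 8.05 on the log2 scale. RC 3 stood apart, with a mean correlation of 0.976 with the other RC arrays, against 0.989 to 0.990 for the other RC arrays. The interquartile range was 2.42 on RC 3, 2.47 on DC 2 and 2.44 on DC 4. On the other RC and DC arrays it was 2.58 to 2.65, and an alternative setting left out DC 2, DC 4 and RC 3. The CC arrays fell into 2 pairs: the interquartile range was 2.73 on CC 1 and 2.75 on CC 2, but 2.58 on CC 3 and 2.57 on CC 4. The beta cell label was borne out by its markers: 6 of 7 measured beta cell markers, among them Ins2, Iapp and Pdx1, averaged above the 75th percentile of all rows, and the glucose transporter gene Slc2a2 (7.80) did not. The hormone genes Gcg and Sst of other islet cell types also read high, at means of 12.34 and 11.54. Markers of further cell types averaged above the median of all rows in 1 of 5 exocrine and ductal, 3 of 6 fibroblast, 0 of 4 endothelial, 2 of 3 immune and 2 of 3 neuronal genes. Above the 75th percentile were 1 immune marker, the macrophage gene Cd68 (9.81), and 2 neuronal markers, Snap25 (12.11) and Gria2 (10.83). In these 5 lists the lowest limma adjusted p in any comparison was 0.16, for the endothelial gene Pecam1 in DC against CC.

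Upstream windows of 250 bases before the gene start (RefSeq, GRCm38.p6) are printed for Trpm5 and for the calcium channel genes Cacna1e and Cacna1b. These passed in RC against DC, and oxygen differed between these conditions. They are a selection: other channel genes that passed there, among them Cacna1a and Cacna1h, have no window printed here. Capitals mark the letters ACGTG or GCGTG on either strand, the core of the element bound by hypoxia-inducible factors. Such a match occurs in 38.6% of all 32851 windows of this length, and 5 of the 8 channel genes have a window in the table.
Trpm5, chr7:143094643-143094892, minus strand: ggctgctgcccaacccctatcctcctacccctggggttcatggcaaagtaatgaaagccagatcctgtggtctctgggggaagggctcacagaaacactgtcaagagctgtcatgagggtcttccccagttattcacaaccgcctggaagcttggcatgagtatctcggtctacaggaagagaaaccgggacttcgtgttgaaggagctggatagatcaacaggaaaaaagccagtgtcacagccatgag
Cacna1e, chr1:154725921-154726170, minus strand: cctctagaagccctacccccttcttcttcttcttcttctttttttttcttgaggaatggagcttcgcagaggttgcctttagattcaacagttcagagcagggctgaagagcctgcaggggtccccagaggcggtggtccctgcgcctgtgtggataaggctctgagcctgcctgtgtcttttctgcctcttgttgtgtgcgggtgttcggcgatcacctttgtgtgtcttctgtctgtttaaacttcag
Cacna1b, chr2:24763153-24763402, minus strand: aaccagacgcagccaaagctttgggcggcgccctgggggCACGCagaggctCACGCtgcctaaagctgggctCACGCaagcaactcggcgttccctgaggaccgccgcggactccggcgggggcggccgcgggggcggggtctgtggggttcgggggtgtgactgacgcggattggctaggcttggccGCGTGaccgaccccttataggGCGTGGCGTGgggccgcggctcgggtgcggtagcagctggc
The windows of Trpm5 and Cacna1e hold 0 matches and that of Cacna1b holds 6, in a stretch with 72% G and C, against a median of 52.4% over all windows. A match is a description of letters, not a binding site.

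DC was compared with CC to ask how these channels differed after 10 serum-free days at low oxygen. Of the 8 genes 1 changed: Cacna1a, the pore subunit of the P/Q-type calcium channel, fell. The other 7, including both KATP subunits, did not pass. RC was compared with DC to ask how the return differed from staying serum-free: Cacna1a was higher in RC and Trpm5 lower. Between RC and CC 0 of the 8 passed. A gene passed where limma's p-value, adjusted by Benjamini-Hochberg over all 35556 rows, was under 0.05. Between DC and CC 6.64% of all rows passed, beside 1 of the 10 channel rows. Between RC and DC 2.63% passed, beside 2 of the 10, and between RC and CC 0.796%, beside 0 of the 10. Counts this small do not set the channels apart from the background. The shares cover rows of any brightness, also those without a gene name, while all 10 channel rows averaged above the median of all rows. At an unadjusted p under 0.05 the channel rows numbered 3, 4 and 4, beside 20.6%, 11.8% and 9.06% of all rows. The median log2 difference over the 10 rows was -0.09, -0.07 and -0.12 in the same order of comparisons, and over all rows 0.04, -0.01 and 0.03.

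**Figure D1:**
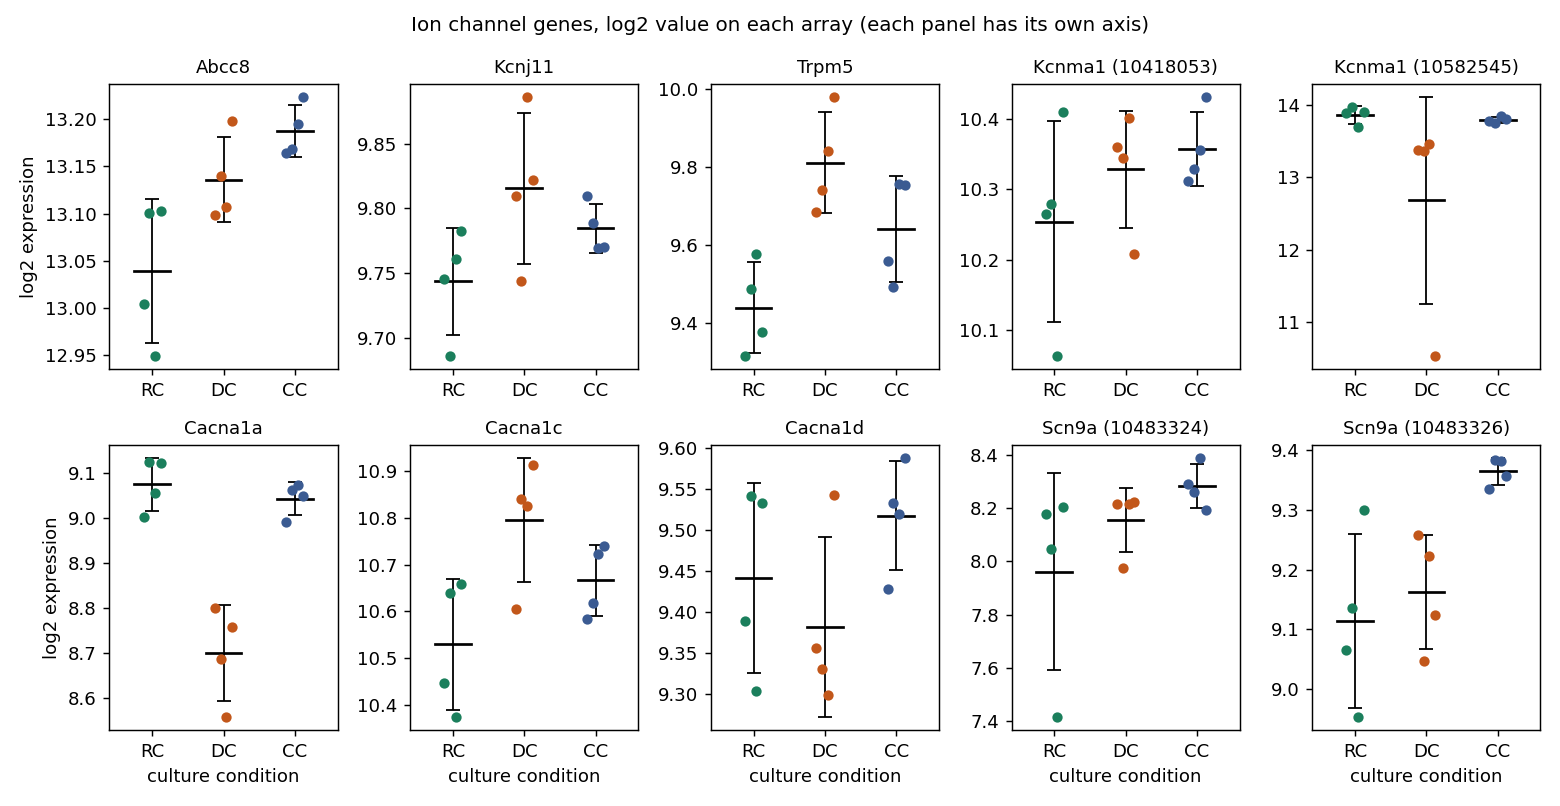
Log2 expression of the 10 channel rows on each of the 12 arrays, by culture condition; points are arrays, horizontal lines group means and whiskers SD (n = 4), and each panel has its own axis. All 4 DC arrays of Cacna1a lie below every RC and CC array, and DC 4 lies far below the other arrays in Kcnma1 row 10582545.

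Abcc8, which encodes the sulfonylurea receptor subunit and sensor of the KATP channel, is on probe set 10563487. It read 13.00, 13.10, 12.95 and 13.10 on the RC arrays, 13.10, 13.14, 13.11 and 13.20 on the DC arrays, and 13.16, 13.17, 13.20 and 13.22 on the CC arrays. The RC values all lay below the CC values, while DC overlapped both. The log2 difference was -0.05 ± 0.05 for DC against CC (SE, n = 4 each; limma adjusted p = 0.56; 95% interval -0.17 to 0.07). It was -0.10 ± 0.05 for RC against DC (adjusted p = 0.58) and -0.15 ± 0.05 for RC against CC (adjusted p = 0.37; interval -0.27 to -0.03).

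Kcnj11, the pore-forming inward rectifier of the same channel, is the neighbour of Abcc8 on chromosome 7, with 0 annotated genes between them. Its probe set (10563480) read 9.75, 9.69, 9.76 and 9.78 on the RC arrays, 9.81, 9.74, 9.89 and 9.82 on the DC arrays, and 9.81, 9.79, 9.77 and 9.77 on the CC arrays. It averaged 9.74 ± 0.04 in RC, 9.82 ± 0.06 in DC and 9.78 ± 0.02 in CC (SD, n = 4). All 12 arrays lay between 9.69 and 9.89 and the groups overlapped. For DC minus CC the 95% interval was -0.08 to 0.14 (limma adjusted p = 0.72). For RC minus DC it was -0.18 to 0.04 (adjusted p = 0.70), and for RC minus CC -0.15 to 0.07 (adjusted p = 0.81).

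Whether the 2 subunits changed unequally was asked within arrays, by subtracting the Kcnj11 value from the Abcc8 value of the same array. This within-array difference, which is not a ratio of transcript amounts, was 3.30 ± 0.10 in RC, 3.32 ± 0.08 in DC and 3.40 ± 0.04 in CC (SD, n = 4). The change was -0.08 between DC and CC, -0.02 between RC and DC, and -0.11 between RC and CC. Exact two-sided permutation tests gave p = 0.143, 0.714 and 0.114 in that order, and 0.171, 0.714 and 0.171 adjusted over the 6 comparisons of this kind. The smallest p that 4 against 4 arrays can give is 0.0286. The cardiovascular KATP subunit genes Abcc9 and Kcnj8 did not pass either. Abcc9 averaged 6.94 in RC, 6.95 in DC and 6.85 in CC, and Kcnj8 averaged 7.74 in RC, 7.81 in DC and 7.59 in CC, each below the median of all values.

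Trpm5 encodes a calcium-activated cation channel, best known from taste cells and also present in beta cells. Its probe set (10569399) read 9.32, 9.49, 9.58 and 9.38 on the RC arrays, 9.68, 9.74, 9.84 and 9.98 on the DC arrays, and 9.56, 9.49, 9.76 and 9.75 on the CC arrays. All RC values lay below all DC values, and the CC arrays overlapped both groups. Within CC the level followed the array pairs, with CC 1 and CC 2 below CC 3 and CC 4. Trpm5 was lower in RC than in DC by -0.37 ± 0.09 on the log2 scale (SE, n = 4 each; 1.29-fold; adjusted p = 0.047). This call is marginal: it held in 9 of 23 alternative settings and was lost, for instance, without DC 4 (-0.32, adjusted p = 0.12) and with quantile normalization (-0.40, adjusted p = 0.10), while without RC 3 it stood at -0.42 (adjusted p = 0.017). DC against CC gave 0.17 ± 0.09 (adjusted p = 0.29) and RC against CC -0.20 ± 0.09 (adjusted p = 0.52).

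Among 19 other measured TRP channel genes, 0 passed in DC against CC by limma, beside 6.64% of all rows. At an unadjusted p under 0.05 there was 1, beside 20.6%. Between RC and DC 1 fell and 0 rose, beside 1.18% of all rows lower and 1.45% higher. Trpc4, a receptor-operated cation channel gene, was the 1 that fell. Trpc4 averaged 8.84 ± 0.03 in RC, 9.37 ± 0.16 in DC and 9.28 ± 0.05 in CC (SD, n = 4). It was lower in RC than in DC by -0.54 ± 0.07 (SE; 1.45-fold; adjusted p = 0.0017) and lower than in CC by -0.44 ± 0.07 (adjusted p = 0.023). The second of these passed in 13 of 23 alternatives. It was lost without any single CC array or RC 1, RC 2 or RC 4, without CC 1 and CC 2 together (-0.44, adjusted p = 0.17) and without CC 3 and CC 4 together (-0.44, adjusted p = 0.22). The other calcium-activated cation channel of the family, Trpm4, averaged 8.54 in RC, 8.74 in DC and 8.66 in CC. Its difference of RC against DC was -0.20 ± 0.05 (adjusted p = 0.082). Trpm2, which opens to intracellular ADP-ribose, averaged 7.56 in RC, 7.71 in DC and 7.51 in CC and did not pass.

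Cacna1a gave the firmest result among the 8 genes. P/Q-type channels supply calcium at nerve terminals, and they contribute to calcium entry in beta cells. Probe set 10573348 read 9.00, 9.12, 9.05 and 9.12 on the RC arrays, 8.80, 8.69, 8.56 and 8.76 on the DC arrays, and 8.99, 9.06, 9.07 and 9.05 on the CC arrays. Each DC array lay below every RC and CC array, and RC and CC overlapped. In DC against CC Cacna1a fell by 0.34 on the log2 scale (SE 0.06, n = 4 each; 1.27-fold; adjusted p = 0.0050; 95% interval -0.48 to -0.21). In RC against DC it rose by 0.37 ± 0.06 (1.30-fold; adjusted p = 0.0058), and by 0.38 (adjusted p = 0.0059) without RC 3. RC against CC gave 0.03 ± 0.06 (adjusted p = 0.87; interval -0.10 to 0.17). Of the 10 channel rows 3 had groups that did not overlap in DC against CC, beside 15.3% of all rows. In RC against DC it was 3 rows beside 6.29%, and in RC against CC 2 rows beside 7.94%. Without CC 3 and CC 4 the fall in DC was 0.33 and no longer passed (-0.33, adjusted p = 0.058).

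The delta cell hormone gene Sst moved in the same direction as Cacna1a. It averaged 12.25 in RC, 10.55 in DC and 11.81 in CC, and it passed both times, at -1.26 for DC minus CC and 1.70 for RC minus DC. Of 4 measured markers of other islet endocrine cells it was the 1 that passed in either comparison. For DC minus CC and RC minus DC, Gcg gave -0.17 and 0.13, and Ppy -0.04 and -0.15. Hhex went the opposite way to Sst both times, at 0.16 and -0.08. The log2 of the summed signal of all 4 markers ran from 13.25 to 13.50 in RC, 12.59 to 12.92 in DC and 13.09 to 13.35 in CC. Hhex, the lowest of the 4, averaged 6.66. The part of such cells in the Cacna1a difference was not tested. In these bulk samples, fewer cells of a type and less RNA per cell cannot be told apart.

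The L-type pore genes Cacna1c and Cacna1d carry the main glucose-evoked calcium current of mouse beta cells. Cacna1c (10547322) read 10.45, 10.64, 10.37 and 10.66 on the RC arrays, 10.61, 10.84, 10.82 and 10.91 on the DC arrays, and 10.58, 10.62, 10.72 and 10.74 on the CC arrays. The DC arrays were the highest apart from DC 1, which lay among the others. Its log2 difference was 0.13 ± 0.08 for DC against CC (SE, n = 4 each; adjusted p = 0.37) and -0.27 ± 0.08 for RC against DC (adjusted p = 0.17; interval -0.45 to -0.08). For RC against CC it was -0.14 ± 0.08 (adjusted p = 0.70). The RC against DC difference passed in 1 of 23 alternatives, array weights (-0.26, adjusted p = 0.032), where 6413 of all rows passed.

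Cacna1d (10418355) read 9.39, 9.54, 9.30 and 9.53 on the RC arrays, 9.36, 9.33, 9.30 and 9.54 on the DC arrays, and 9.43, 9.53, 9.52 and 9.59 on the CC arrays. The 3 groups overlapped, with DC 4 at the level of the higher CC arrays. DC minus CC was -0.14 ± 0.08 (SE, n = 4 each; limma adjusted p = 0.31). RC minus DC was 0.06 ± 0.08 (adjusted p = 0.86) and RC minus CC -0.08 ± 0.08 (adjusted p = 0.78).

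Cacna1c and Cacna1d were also compared within each array. Cacna1c minus Cacna1d was 1.06, 1.10, 1.07 and 1.13 on the RC arrays, 1.25, 1.51, 1.53 and 1.37 on the DC arrays, and 1.16, 1.09, 1.20 and 1.15 on the CC arrays. Every DC array lay above every RC and CC array. The within-array difference was higher by 0.27 in DC than in CC and changed by -0.33 in RC against DC. Each had the smallest exact two-sided permutation p possible, p = 0.0286 (adjusted p = 0.0857 over the 6 comparisons). Even with every comparison of this pair at that smallest p, the adjusted p stays above 0.05 unless the KATP pair reaches it too. The adjusted test could therefore not decide whether the 2 genes changed unequally. RC against CC gave -0.06 (exact p = 0.0857, adjusted p = 0.171).

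**Figure D2:**
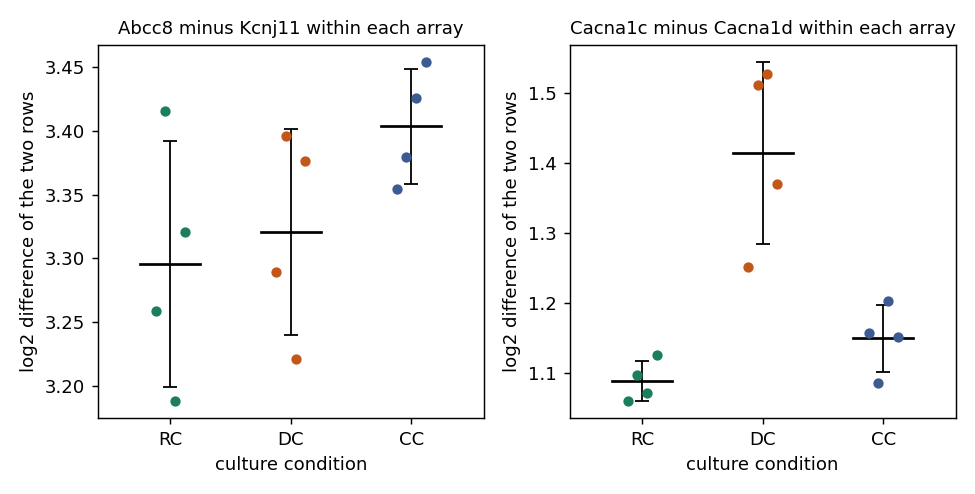
Within-array log2 differences of Abcc8 minus Kcnj11 and of Cacna1c minus Cacna1d by culture condition; points are arrays, lines means and whiskers SD (n = 4), and the axes do not start at 0. For the L-type pair the DC arrays (1.25 to 1.53) lie above the RC arrays (1.06 to 1.13) and the CC arrays (1.09 to 1.20).

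Of the 7 other calcium channel pore genes measured, 3 rose and 0 fell in DC against CC, beside 2.31% of all rows higher and 4.32% lower. The highest was Cacna1e, the R-type pore gene, which contributes to insulin release in mouse beta cells. It read 8.81, 8.91, 8.94 and 8.81 on the RC arrays, 9.32, 9.36, 9.12 and 9.21 on the DC arrays, and 8.35, 8.46, 8.45 and 8.50 on the CC arrays, so the 3 conditions did not overlap. Cacna1e rose by 0.81 ± 0.07 in DC against CC (SE, n = 4 each; 1.76-fold; adjusted p = 1.8e-05). It was lower in RC than in DC by -0.38 ± 0.07 (1.30-fold; adjusted p = 0.0083) and higher in RC than in CC by 0.43 ± 0.07 (1.35-fold; adjusted p = 0.015). Its DC to CC and RC to DC differences passed in all 23 alternatives, and that of RC against CC in 16, with losses without CC 1, CC 3, RC 1 or RC 2. Without CC 1 and CC 2 the difference of RC against CC was 0.40 (adjusted p = 0.17), and without CC 3 and CC 4 it was 0.46 (adjusted p = 0.16).

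Cacna1b, the N-type pore gene, read 9.43, 9.65, 9.49 and 9.59 on the RC arrays, 9.94, 9.93, 9.97 and 9.80 on the DC arrays, and 9.51, 9.65, 9.59 and 9.58 on the CC arrays. The DC arrays lay above all others. It rose by 0.32 ± 0.07 in DC against CC (SE; 1.25-fold; adjusted p = 0.0090) and was lower in RC than in DC by -0.37 ± 0.07 (adjusted p = 0.0083). The T-type gene Cacna1g averaged 8.65 in RC, 8.86 in DC and 8.55 in CC. It rose in DC against CC by 0.32 ± 0.06 (adjusted p = 0.0052), and RC against DC gave -0.22 ± 0.06 (adjusted p = 0.077). Another T-type gene, Cacna1h, averaged 8.17 in RC, 8.64 in DC and 8.39 in CC. It was lower in RC than in DC by -0.47 ± 0.08 (adjusted p = 0.0077), and DC against CC gave 0.25 ± 0.08 (adjusted p = 0.097). Of the same 7 genes 3 fell and 0 rose in RC against DC, beside 1.18% of all rows lower and 1.45% higher. The median over the 7 was 0.25 for DC against CC, against 0.04 over all rows, and -0.22 for RC against DC, against -0.01. Without CC 1 and CC 2, 1 of the 7 rose in DC: Cacna1b (0.32, adjusted p = 0.078) and Cacna1g (0.27, adjusted p = 0.091) no longer passed. Without CC 3 and CC 4, 2 of the 7 rose, and Cacna1b was again lost (0.33, adjusted p = 0.068). In RC against DC Cacna1b was lost with only both groups fitted (-0.37, limma adjusted p = 0.051). Among the 7 measured beta cell markers the zinc transporter gene Slc30a8 moved likewise (0.31 in DC against CC and -0.45 in RC against DC, both passing). The other markers did not pass. In the same order, Mafa (0.28 and -0.28), Slc2a2 (0.29 and -0.12), Nkx6-1 (0.10 and -0.17) and Ins2 (0.01 and -0.03) had the same signs. Iapp (-0.10 and 0.08) and Pdx1 (-0.10 and 0.08) had the opposite signs. The part of these marker differences here was not tested.

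**Figure D3:**
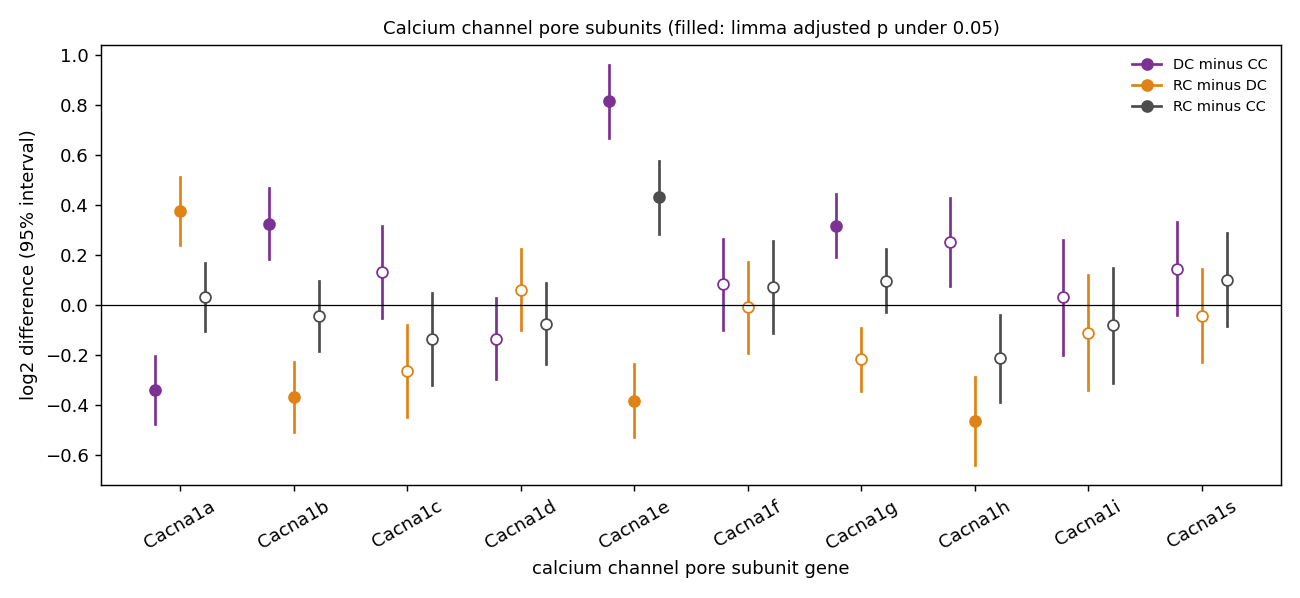
Log2 differences between conditions for the 10 calcium channel pore genes, 3 members and 7 others; points are limma estimates, bars 95% intervals, and filled points have an adjusted p under 0.05. Cacna1a is the 1 gene with a called fall in DC against CC, while Cacna1b, Cacna1e and Cacna1g have called rises.

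Auxiliary subunits set the trafficking and gating of these pores. Of 14 measured, 2 fell and 0 rose in DC against CC, beside 4.32% of all rows lower and 2.31% higher. They were Cacnb1 (-0.26 ± 0.06, adjusted p = 0.022) and Cacng2 (-0.47 ± 0.09, adjusted p = 0.0077). Cacng2 is known mainly as a partner of AMPA-type glutamate receptors. Cacnb1 passed in 15 of 23 alternatives and was lost without CC 1, CC 2, CC 3, DC 2 or DC 3 and without either CC pair. Cacng2 passed in 20 of 23. It has another row, which did not pass in this comparison (-0.16) or between RC and DC (0.27, adjusted p = 0.20). A total of 2 rose and 0 fell in RC against DC, beside 1.45% of all rows higher and 1.18% lower. They were Cacng2 (0.45 ± 0.09, adjusted p = 0.021) and Cacnb4 (0.30 ± 0.07, adjusted p = 0.033). These calls are fragile: Cacng2 passed in 14 of 23 alternatives, with 0.30 (adjusted p = 0.14) without DC 2, DC 4 and RC 3, and Cacnb4 passed in 9 of 22. Cacnb2 averaged 7.63 in RC, 7.70 in DC and 7.57 in CC and did not pass. Cacna2d1, the subunit that binds gabapentin, averaged 10.02 in RC, 10.26 in DC and 10.40 in CC and did not pass.

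Scn9a encodes a sodium channel known from pain-sensing neurons and is a main sodium channel gene of mouse beta cells. Its brighter row (10483326) read 9.07, 9.14, 8.95 and 9.30 on the RC arrays, 9.26, 9.05, 9.22 and 9.12 on the DC arrays, and 9.33, 9.38, 9.38 and 9.36 on the CC arrays. All CC arrays lay above all RC and DC arrays, and RC and DC overlapped. The differences did not pass: -0.20 ± 0.08 for DC minus CC (SE, n = 4 each; adjusted p = 0.16), -0.05 ± 0.08 for RC minus DC (adjusted p = 0.89) and -0.25 ± 0.08 for RC minus CC (adjusted p = 0.21). The other row (10483324) read 8.18, 8.05, 7.41 and 8.21 on the RC arrays, 8.21, 7.98, 8.22 and 8.22 on the DC arrays, and 8.29, 8.26, 8.39 and 8.19 on the CC arrays. It averaged 7.96 ± 0.37 in RC, 8.16 ± 0.12 in DC and 8.28 ± 0.08 in CC (SD, n = 4). Its RC spread came from RC 3, at 7.41. RC against CC was -0.32 with that array and -0.14 without it, and RC against DC was -0.20 with it and -0.01 without it. DC against CC was -0.13.

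Of 10 other sodium channel and leak genes, 1 fell and 0 rose in DC against CC (4.32% and 2.31% of all rows). The gene that fell was Scn3a, a further sodium channel pore gene of beta cells. Scn3a averaged 8.07 ± 0.17 in RC, 7.82 ± 0.20 in DC and 8.22 ± 0.09 in CC (SD, n = 4). The fall was -0.40 ± 0.11 (SE; adjusted p = 0.041) and passed in 10 of 23 alternatives. In RC against DC and in RC against CC 0 of the 10 passed by limma, beside 2.63% and 0.796% of all rows. At an unadjusted p under 0.05 there were 2 in each, beside 11.8% and 9.06%. Scn8a averaged 9.32 in RC, 9.34 in DC and 9.31 in CC, and the auxiliary subunit gene Scn3b averaged 8.89 in RC, 8.97 in DC and 9.19 in CC.

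Kcnma1 encodes the pore of the large-conductance (BK) channel, which opens to voltage and calcium and shortens action potentials. Its 2 rows differ in annotation. Row 10418053 lists 20 accessions, 17 of them among the gene's RefSeq transcripts, while row 10582545 lists 4, none among them (0 of 4), so its assignment to Kcnma1 rests on the platform annotation alone. Row 10418053 read 10.26, 10.28, 10.06 and 10.41 on the RC arrays, 10.36, 10.34, 10.40 and 10.21 on the DC arrays, and 10.31, 10.33, 10.36 and 10.43 on the CC arrays. The groups overlapped. The limma 95% interval was -0.19 to 0.13 for DC minus CC (adjusted p = 0.82), -0.24 to 0.09 for RC minus DC (adjusted p = 0.82), and -0.27 to 0.06 for RC minus CC (adjusted p = 0.74).

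Row 10582545 read 13.88, 13.97, 13.69 and 13.91 on the RC arrays, 13.38, 13.36, 13.45 and 10.53 on the DC arrays, and 13.77, 13.75, 13.84 and 13.80 on the CC arrays. All DC arrays lay below all others, and DC 4 lay far below the other DC arrays. With DC 4 the difference was -1.11 ± 0.51 for DC against CC (SE, n = 4 each; adjusted p = 0.24) and 1.18 ± 0.51 for RC against DC (adjusted p = 0.37). Without DC 4 it was -0.39 (limma adjusted p = 0.0073) and 0.47 (adjusted p = 0.0053), so 1 array decided both the size and the call. RC against CC was 0.07 ± 0.51 (adjusted p = 0.97).

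**Figure D4:**
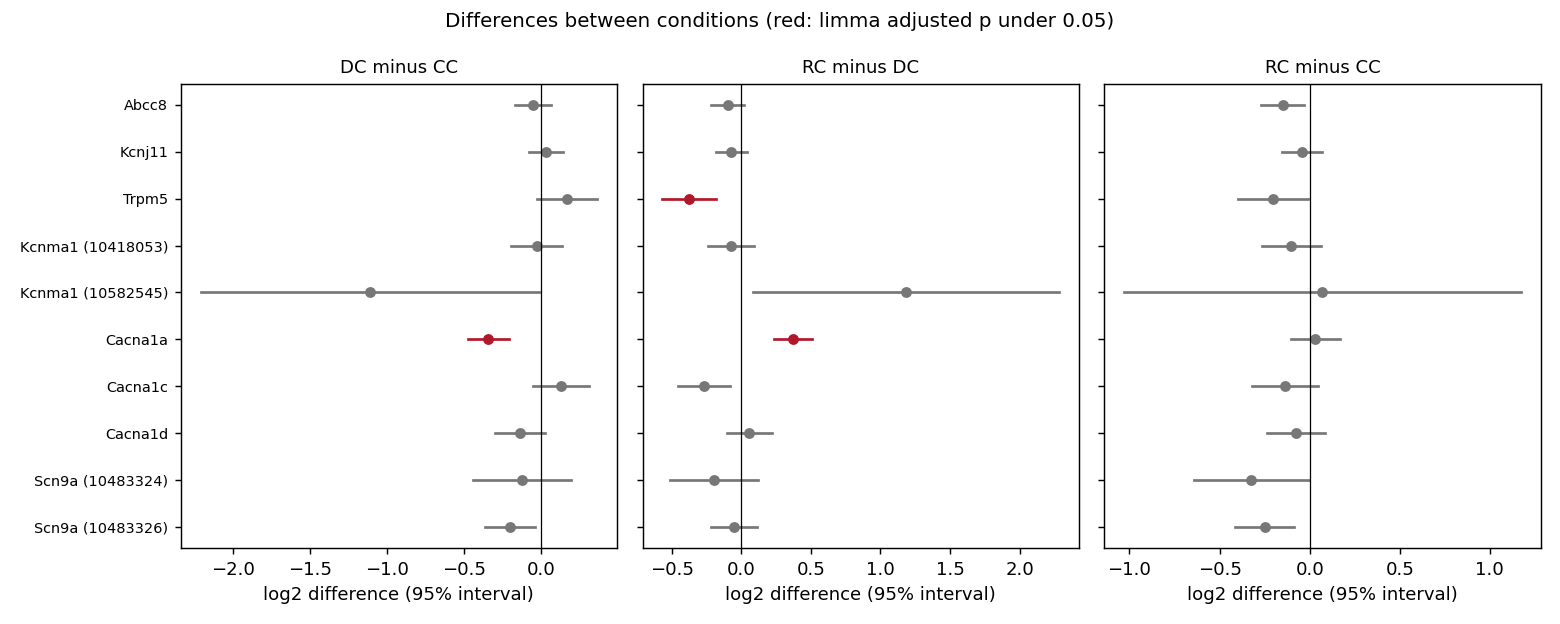
Log2 differences between conditions for the 10 channel rows; points are limma estimates, bars 95% intervals, and red marks an adjusted p under 0.05. Cacna1a passes in DC against CC and RC against DC and Trpm5 in RC against DC, and Kcnma1 row 10582545 has the widest intervals.

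Of 15 other calcium-activated potassium channel and BK auxiliary genes, 1 fell and 0 rose in DC against CC (4.32% and 2.31% of all rows). In RC against DC 1 rose and 0 fell (1.45% and 1.18% of all rows). Both were Kcnn2, a small-conductance calcium-activated channel gene, at 7.39 ± 0.04 in RC, 7.12 ± 0.06 in DC and 7.36 ± 0.04 in CC (SD, n = 4). Its differences were -0.24 ± 0.05 for DC against CC (SE; adjusted p = 0.016) and 0.27 ± 0.05 for RC against DC (adjusted p = 0.015). They passed in 18 and 17 of 22 alternatives, the first being lost without CC 3 or either CC pair and the second without DC 3, RC 1 or RC 4. The BK auxiliary genes Kcnmb2 and Kcnmb4 did not pass. Kcnmb2 averaged 9.19 in RC, 9.29 in DC and 9.18 in CC, and Kcnmb4 averaged 7.96 in RC, 7.88 in DC and 7.89 in CC.

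Voltage-gated potassium channels repolarise the beta cell. Of 39 measured, 1 rose and 3 fell in DC against CC, beside 2.31% of all rows higher and 4.32% lower. Kcnh1, an ether-a-go-go channel gene, read 11.48, 11.56, 11.41 and 11.56 on the RC arrays, 11.27, 11.10, 11.15 and 11.12 on the DC arrays, and 11.81, 11.93, 11.77 and 11.84 on the CC arrays. The 3 conditions did not overlap, with RC between DC and CC. It differed by -0.68 ± 0.06 for DC against CC (SE, n = 4 each; 1.60-fold; adjusted p = 3.7e-05), by 0.34 ± 0.06 for RC against DC (adjusted p = 0.0095) and by -0.34 ± 0.06 for RC against CC (adjusted p = 0.032). The last passed in 12 of 23 alternatives. It was lost without any single CC array or RC 1, RC 2 or RC 4, without CC 1 and CC 2 (-0.31, adjusted p = 0.25) and without CC 3 and CC 4 (-0.37, adjusted p = 0.20).

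The M-current gene Kcnq3 fell in DC against CC (-0.61 ± 0.09, adjusted p = 0.0015), as did Kcnh5 (-0.45 ± 0.10, adjusted p = 0.012), and Kcnh7 rose (0.32 ± 0.06, adjusted p = 0.0043). The counts were 3 higher and 1 lower in RC against DC, beside 1.45% and 1.18% of all rows. Kcnq3 rose by 0.54 ± 0.09 (adjusted p = 0.0069), Kcna4, an A-type channel gene, by 0.37 ± 0.06 (adjusted p = 0.0082) and Kcnh1 as above, and the delayed rectifier gene Kcnb2 fell (-0.29 ± 0.06, adjusted p = 0.021). The Kcnb2 call passed in 16 of 23 alternatives and was lost without DC 3, DC 4, RC 1 or RC 2. Kcnh5 passed in 21 of 23, the exceptions being each CC pair.

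Two-pore channels contribute to the resting potential. Of 14 measured 1 rose and 1 fell in DC against CC, beside 2.31% and 4.32% of all rows. Kcnk10 fell by 0.62 on the log2 scale (SE 0.08; adjusted p = 7.2e-04) and rose by 0.74 ± 0.08 in RC against DC (1.67-fold; adjusted p = 4.2e-04). It averaged 9.28 ± 0.11 in RC, 8.54 ± 0.13 in DC and 9.16 ± 0.12 in CC (SD, n = 4). Kcnk9 rose in DC against CC (0.31 ± 0.05, adjusted p = 0.0044). Kcnk16, an alkaline-activated channel gene prominent in beta cells, averaged 8.35 in RC, 8.36 in DC and 8.47 in CC and did not pass.

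Of 14 KATP and inward rectifier relatives, 0 rose and 3 fell in DC against CC, beside 2.31% and 4.32% of all rows. Kcnj6 and Kcnj3 encode G-protein-gated rectifiers that hormones and transmitters open. Kcnj6 averaged 9.06 ± 0.18 in RC, 8.43 ± 0.14 in DC and 9.10 ± 0.10 in CC (SD, n = 4), with -0.67 ± 0.10 for DC against CC (SE; 1.59-fold; adjusted p = 0.0013) and 0.63 ± 0.10 for RC against DC (adjusted p = 0.0040). Kcnj3 fell in DC against CC (-0.48 ± 0.06, adjusted p = 5.6e-04), as did Kcnj2, a classical inward rectifier (-0.47 ± 0.09, adjusted p = 0.0057). Kcnj2 was lost without either CC pair, at adjusted p of 0.053 and 0.062. Kcnj6 was the 1 relative that rose in RC against DC, where 1.45% of all rows were higher.

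Of 13 chloride and HCN channel genes, 0 rose and 2 fell in DC against CC, beside 2.31% and 4.32% of all rows. Ano6, a calcium-activated scramblase and channel gene, averaged 10.68 ± 0.18 in RC, 10.56 ± 0.10 in DC and 11.22 ± 0.07 in CC (SD, n = 4). The volume-regulated anion channel gene Lrrc8a averaged 9.54 ± 0.06 in RC, 9.58 ± 0.13 in DC and 9.89 ± 0.09 in CC. Ano6 differed by -0.67 ± 0.09 for DC against CC (SE; adjusted p = 5.3e-04) and -0.55 ± 0.09 for RC against CC (adjusted p = 0.017), and Lrrc8a by -0.31 ± 0.07 (adjusted p = 0.022) and -0.35 ± 0.07 (adjusted p = 0.049). Neither passed in RC against DC. For DC against CC, Ano6 passed in all 23 alternatives and Lrrc8a in 15, being lost without either CC pair and without CC 1, CC 3, DC 2 or DC 4, with -0.20 (adjusted p = 0.14) without DC 2, DC 4 and RC 3. For RC against CC, Ano6 passed in 15 of 23 and Lrrc8a in 11, and both were lost without either CC pair, at adjusted p of 0.14 to 0.32, and without CC 1, CC 2, CC 4, RC 1 or RC 2.

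**Figure D5:**
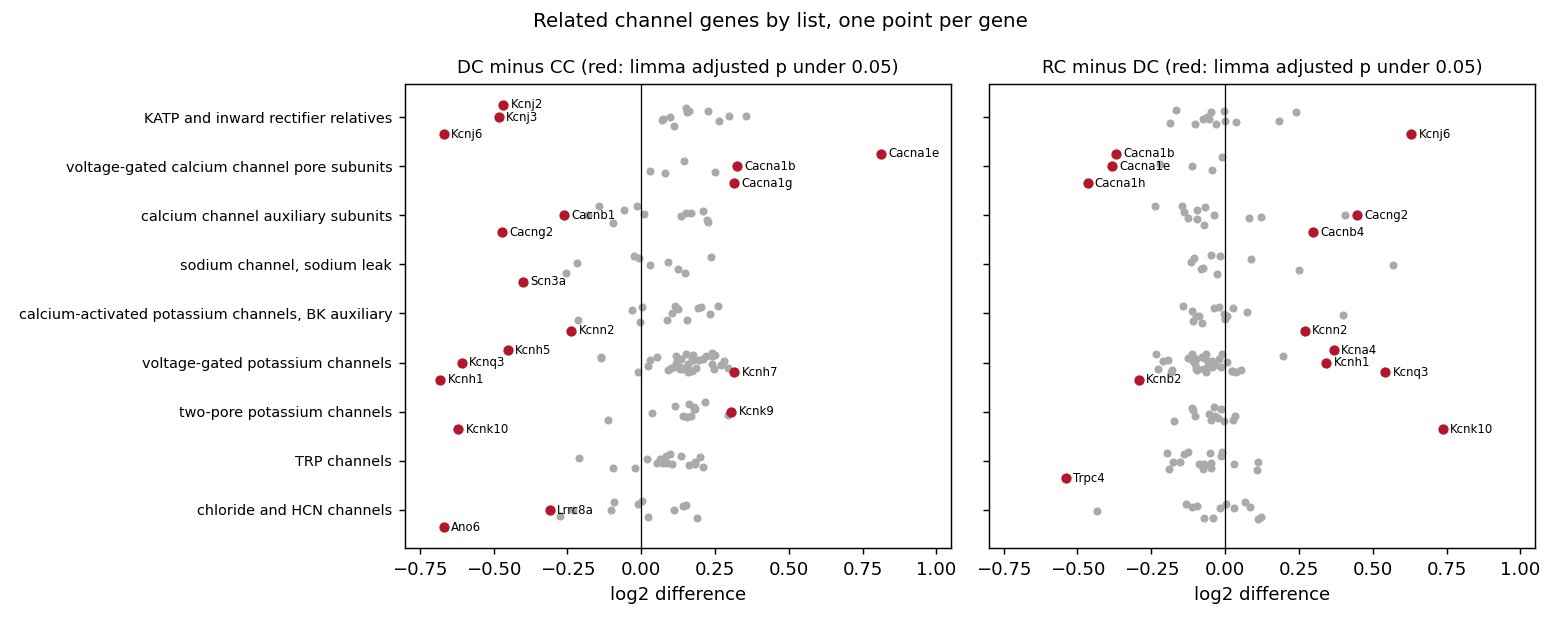
Log2 differences for the related channel genes, 1 point per gene and 1 line of points per list, for DC against CC (left) and RC against DC (right); red points have an adjusted p under 0.05 and are named. In DC against CC 5 genes rose and 13 fell, and in RC against DC 8 rose and 5 fell.

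Over all 145 related channel genes, 5 rose and 13 fell in DC against CC, 8 rose and 5 fell in RC against DC, and 1 rose and 4 fell in RC against CC. The shares of all rows were 2.31% higher and 4.32% lower, 1.45% and 1.18%, and 0.121% and 0.675% in the same order. The median difference was 0.12, -0.05 and 0.07, against 0.04, -0.01 and 0.03 over all rows. The total passing in DC against CC was 9 without CC 1 and CC 2 and 10 without CC 3 and CC 4, and in RC against DC it was 22 without RC 3. In RC against CC it was 0 without either CC pair.

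For Cacna1a and Trpm5, which passed in at least 1 comparison, the genes with the closest pattern over the 12 arrays were sought among 10455 named genes above the median of all values. Likeness was the root-mean-square difference after each gene was centred on its own mean. Closest to Cacna1a were Cux2 (0.058), Efr3b (0.059) and Vash2 (0.063), where the spread of Cacna1a around its own mean was 0.181. Closest to Trpm5 were Tgfbr3 (0.091), Mlxipl (0.095) and Aatk (0.095), with its own spread at 0.188. Of these, Cux2 and Efr3b passed in the same comparisons as Cacna1a, at -0.29 and -0.41 in DC against CC and 0.30 and 0.38 in RC against DC. Vash2 passed in RC against DC (0.35), and Tgfbr3 in DC against CC (0.21) and RC against DC (-0.31). Mlxipl and Aatk did not pass. All were picked for closeness on the same arrays, so like differences between conditions follow from the picking. The 12 arrays share 3 conditions and 1 experiment, and the likeness is a description.

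No comparison of RC with CC passed for the 8 genes by limma, with 4 of 10 rows at an unadjusted p under 0.05, where 9.06% of all rows were. These were Abcc8, Trpm5 and both rows of Scn9a, all lower in RC. With array weights 2 genes passed, Abcc8 (-0.14, adjusted p = 0.048) and Trpm5 (-0.33, adjusted p = 0.0077). In that setting 2818 of all rows passed, against 283 without weights. The comparisons share arrays: DC enters 2 of them and so do RC and CC.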

How the data were processed

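Total RNA of the 12 Min6 samples was labelled with a GeneChip whole-transcript kit, per the labels' protocols. The deposited values are on a log2 scale, judged from their range of 3.69 to 14.5. Which software summarised and normalized the arrays was not given in the sources used. No further normalization was applied to the deposited log2 values. Of 35556 rows, 21789 name 1 gene in the platform annotation, 1621 several and 12146 none.

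A limma model (version 3.58.1, R 4.3.3) took all 12 arrays and every row, with a mean for each condition (9 residual degrees of freedom, eBayes), with Benjamini-Hochberg adjustment over all rows and a threshold of 0.05. It was tested on simulated data. Within-array differences were compared by exact two-sided permutation tests (Python 3.11.15, scipy 1.17.1). The number of arrays limits the precision. Replicate numbers were not treated as pairs. Correlations of same-numbered deviations ran from -0.36 to 0.47, which does not settle whether the numbers mark a shared batch.

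The genes and lists were chosen with earlier results of these data known. Named are all rows of the 8 genes, up to 4 passing genes with the largest differences per list and comparison, a set of beta cell partners, and for each passing gene the 3 genes of closest pattern. Some listed partners are not reported here. Alternatives changed the arrays, groups, scaling, covariates, weights, variance prior and filter.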

Additional observations from a re-analysis of the deposited data

Results flagged for a closer look

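Of 138 groups of 4 arrays tested, 3 held an array far from the other 3 (Dixon's test at the 95% level). Chance gives this in about 1 in 20 groups. Kcnma1 row 10582545 read 10.53 on DC 4, against 13.36 to 13.45 on the other DC arrays. Scn9a row 10483324 read 7.98 on DC 2, against 8.21 to 8.22 on the other DC arrays. Cacnb1 read 8.43 on RC 3, against 8.21 to 8.24 on the other RC arrays.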

How the results depend on the processing

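No difference of the 10 channel rows that passed changed sign under the 23 alternatives run. In DC against CC, 4840 of all rows passed with array weights, 991 without CC 1 and CC 2 and 1568 without CC 3 and CC 4, and 1549 to 3718 when single arrays were left out. In RC against DC it was 462 with only both groups fitted, 6413 with array weights, 1737 with the interquartile range as covariate and 522 to 2892 without single arrays. In RC against CC it was 68 with the replicate block, 2818 with array weights, 636 with the interquartile range, 439 among rows above the median, 23 without CC 1 and CC 2, 18 without CC 3 and CC 4, 580 without DC 2, DC 4 and RC 3, and 57 to 352 without single arrays. Of the channel rows in DC against CC, 2 passed with array weights and without DC 2, DC 4 and RC 3, 0 without CC 3 and CC 4, and 1 to 2 without single arrays. In RC against DC, 1 passed with only both groups fitted, with quantile normalization, and without either CC pair, and 1 to 2 without single arrays. With array weights Cacna1c also passed in this comparison (-0.26, adjusted p = 0.032). In RC against CC, 2 passed with array weights, 1 with the interquartile range and 0 to 0 without single arrays. The cause was not tested. Whether replicate numbers pair these samples was not settled. The replicate block changed no call of a channel row: Cacna1a had adjusted p = 0.021 in DC against CC and 0.027 in RC against DC, and Trpm5 0.042 in RC against DC (limma). Of the related channel genes, 9 of 18 passing in DC against CC, 6 of 13 in RC against DC and 0 of 5 in RC against CC passed under every alternative. With array weights the related genes passing numbered 30, 39 and 21 in that order. In RC against DC they numbered 7 with only both groups fitted and 20 with the interquartile range. In RC against CC they numbered 0 with the replicate block, 0 without CC 1, RC 1 or RC 2, and 8 without DC 2, DC 4 and RC 3.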
